A study of Mus with 96 samples.

Results

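Livers of Hep-Bmal1KO mice were compared with livers of Hep-Bmal1WT mice at a single time of day, ZT 10 (10 hours after lights on, near the end of a 12-hour light phase), after 2 weeks on cdHFD, a high-fat diet that lacks choline. The comparison holds 8 of the 96 libraries of the series, 4 of each genotype, chosen by the diet, genotype and time in their labels. Hep-Bmal1KO mice carried AlbCre, a Cre recombinase driven by the albumin promoter and so active in hepatocytes, together with homozygous floxed Bmal1 (Bmal1flx/flx). Hep-Bmal1WT mice were littermates with the same floxed alleles and no Cre, so the presence of Cre and the loss of Bmal1 cannot be told apart. The background strain was C57BL/6J, mice were aged 8 to 10 weeks at the start, and each genotype had 2 males (replicates 1 and 2) and 2 females (replicates 3 and 4). The cdHFD held 60% fat, 2% cholesterol, 9% protein and 0.17% methionine, and is used to bring on steatohepatitis. Whole liver was profiled by BRB-seq, which barcodes each sample and counts reads from the 3′ ends of transcripts, and levels are given here as CPM, the reads of a gene scaled to a common library size. In whole liver, fewer cells of a type and less RNA per cell cannot be told apart.

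BMAL1, encoded by Arntl, pairs with CLOCK or NPAS2 and switches on genes that carry E-boxes. Among its targets are the Per and Cry repressors, which close the core feedback loop, the REV-ERB receptors (Nr1d1 and Nr1d2), which in turn repress Arntl, Npas2 and Cry1, and the PAR bZIP factors (Dbp, Tef and Hlf), which pass the rhythm on to enzymes of drug, sterol and lipid metabolism. The rhythm makes the size of a knockout effect depend on the hour at which the liver is taken. In a liver with steatohepatitis, bile duct-type cells expand, stellate cells lay down collagen, and macrophages and neutrophils accumulate.

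The 8 libraries held 5515868 to 7937700 reads on genes, and 12034 genes passed the filter on low counts. Wild-type replicate 3, a female, stood apart from its label. On a scale where 0 is the median of the other wild-type libraries and 1 that of the knockout libraries of the same diet and time, it was at 1.41 over 19 clock genes and at 1.27 over 20 other genes that differed most by genotype at the other times, whereas the other 3 wild-type libraries lay between -0.223 and 0.281 on both. Knockout replicates 1 to 3 lay between 0.68 and 1.2 on both, and knockout replicate 4 at 0.745 on clock genes and 0.226 on the other genes. Knockout replicate 4 is labelled female but held 4 Xist reads, against 344 to 595 in the other females, and 0 to 5 reads of each of 4 Y-linked genes. The library names in the labels have the form of plate wells, with one column number for the wild type and another for the knockout, so that column and genotype cannot be told apart. Log2 fold changes and calls are for 4 against 3, without wild-type replicate 3, unless 4 against 4 is named. For a called gene whose log2 fold change in 4 against 3 was over 1.5 times that in 4 against 4, the latter is given too. Counts in males alone (2 against 2), which hold neither doubted library, are given for a list where they differ.

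No gene passed an adjusted p of 0.05 in 4 against 4 (0 of 12034, 0% of genes tested; edgeR quasi-likelihood test with a sex term, Benjamini-Hochberg over all genes), where 1459 genes (12.1%) had an unadjusted p under 0.05 and DESeq2 called 97. Without wild-type replicate 3, 687 genes passed, 391 higher in the knockout (3.25% of genes tested) and 296 lower (2.46%). Of these, 208 rose and 83 fell at least by 1 on the log2 scale. In males alone, 521 genes passed, 283 higher (2.35%) and 238 lower (1.98%). The call in 4 against 3 rested on the sex term, since without it 8 genes passed (2 higher, 6 lower). Leaving out a library for resembling the other genotype widens the difference between the groups, so the counts of 4 against 3 describe these 7 libraries. List counts below stand beside 3.25% called higher and 2.46% called lower over all genes tested, and 2.35% and 1.98% in males.

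The 24 leading genes, the 12 of smallest p in each direction of 4 against 3 at a log2 fold change of 1 or more, split by kind. Among those that fell were enzymes of drug and steroid metabolism (Cyp2a5, Cyp2a4, Cyp2d9, Gsta2 and Akr1d1), a pheromone-carrier protein (Mup20), a glutamate transporter (Slc1a2), a glycogen-targeting phosphatase subunit (Ppp1r3b) and Slc46a3, a lysosomal transporter. Among those that rose were genes of bile duct and progenitor-type epithelium (Cd24a, Tspan8, Dcdc2a, Sox4 and Bicc1), of matrix (Col1a1, Col6a3, Lum and Timp2), of myeloid cells (Lyz2 and S100a8), and Emp1, an epithelial membrane protein. For 9 of the 24, all 4 knockout libraries lay beyond all 4 wild-type libraries: Cd24a, Tspan8, Dcdc2a, Timp2, Col6a3 and Bicc1 above, and Cyp2d9, Mup20 and Slc46a3 below. With all 4 wild-type libraries the log2 fold change fell to 1.32 for Sox4 (from 1.98), to 0.64 for Lum (from 1.2) and to 0.84 for S100a8 (from 1.35), with adjusted p of 0.252, 0.428 and 0.345. Over all genes tested, 4.53% were separated in this way in 4 against 4 and 12.1% in 4 against 3.

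**Figure D1:**
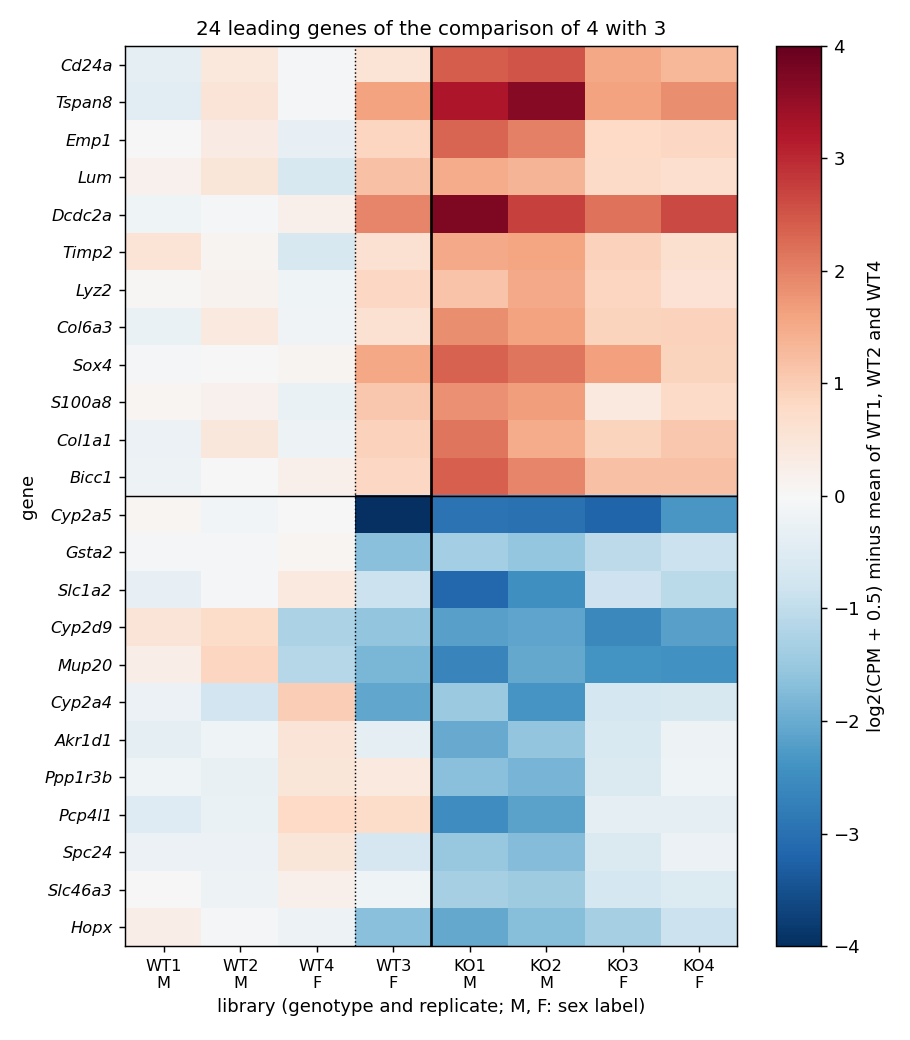
The color scale gives log2(CPM + 0.5) of each library (columns, with the sex label) minus the mean of wild-type replicates 1, 2 and 4, for the 24 leading genes of 4 against 3 (rows). Both knockout males (KO1 and KO2) stand further from the wild type than both knockout females (KO3 and KO4) for all 12 genes that rose and for 9 of the 12 that fell, and wild-type replicate 3 (between the dotted and the solid line) is shown apart because it was left out of the test.

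Core clock transcripts hardly separated the genotypes at this hour. Of the 17 clock genes described here, 1 rose (Npas2) and 1 fell (Hlf) in 4 against 3. These genes belong to the scale on which wild-type replicate 3 stood apart, so their 4 against 3 calls are given as a description. The 20 other genes on which it also stood apart are not listed here, so genes outside the clock lists may be among them. Arntl (ENSMUSG00000055116, GRCm38 chr7:113178471-113314126) was at 3.16, 3.65 and 2.80 CPM in wild-type replicates 1, 2 and 4 and at 2.69, 2.34, 3.22 and 3.93 CPM in the knockout. Wild-type replicate 3, at 8.50 CPM, was above all of them, and the other libraries overlapped. The log2 fold change was -0.13 ± 0.36 (SE; adjusted p = 0.895) in 4 against 3 and -0.56 ± 0.36 (adjusted p = 0.563) in 4 against 4. Reads at the 3′ end of Arntl lie outside the floxed exon, so they do not check the deletion.

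Npas2 (ENSMUSG00000026077, chr1:39193702-39363240), the partner of BMAL1 that can stand in for CLOCK, was at 0.79, 0.18 and 0.40 CPM in wild-type replicates 1, 2 and 4, which is 5, 1 and 2 reads. The knockout libraries held 3.95, 3.39, 4.12 and 6.34 CPM, all above these 3. Wild-type replicate 3 held 19.9 CPM, beyond every knockout library. The log2 fold change was 3.09 ± 0.52 (adjusted p = 0.0065) in 4 against 3, 2.81 in males (adjusted p = 0.0419) and 0.27 (adjusted p = 0.941) in 4 against 4. Npas2 was among the clock genes that placed wild-type replicate 3 apart, so its 4 against 3 value is a description. Hlf, one of the PAR bZIP factors, averaged 26.8 ± 3.58 CPM (SD, n = 3) in the wild type and 17.3 ± 4.58 (n = 4) in the knockout, a log2 fold change of -0.71 ± 0.19 (adjusted p = 0.0412), but knockout replicate 4 at 24 CPM overlapped the wild type, and the call was lost in males (adjusted p = 0.0744).

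The repressor arm gave values without calls. Per2 was at 36.7, 29.2 and 28.8 CPM in the 3 wild-type libraries and at 11.1, 22.6, 22.7 and 23 in the knockout, lower in every library, with a log2 fold change of -0.71 (adjusted p = 0.0866). For Per2, wild-type replicate 3 at 21.2 CPM lay within the knockout range. Ciart, a repressor of CLOCK and BMAL1, was the only one of the 17 clock genes whose 4 knockout libraries (3.16, 4.56, 2.71 and 2.28 CPM) all lay above all 4 wild-type libraries (1.58, 1.83, 0.362 and 0.999 CPM), and its log2 fold change was 1.22 (adjusted p = 0.0962) in 4 against 3 and 1.46 (adjusted p = 0.209) in 4 against 4. Over all genes tested, 4.53% were separated in either direction in 4 against 4 and 12.1% in 4 against 3. Among the 17 clock genes in 4 against 3, the knockout lay above for Npas2 and Ciart and below for Per2 and Tef. That is a larger share than 12.1%, but these genes helped to place wild-type replicate 3 apart, so it is a description. Tef was at 78.2, 71.4 and 61.1 CPM against 55.9, 56.9, 54.8 and 53.3 CPM (log2 fold change -0.32, adjusted p = 0.165). Nr1d1 gave 8.06, 10.8 and 5.39 CPM against 24, 12.3, 10.4 and 6.85 CPM, a log2 fold change of 0.85 (adjusted p = 0.0945), with 3.98 CPM in wild-type replicate 3. Dbp, usually among the most rhythmic transcripts of the liver, was at 66.2, 81.8 and 56.7 CPM in the 3 wild-type libraries and at 68.2, 68.6, 68.1 and 72.4 CPM in the knockout, a log2 fold change of 0.05 ± 0.14 (adjusted p = 0.898). For Dbp, wild-type replicate 3 at 25.7 CPM lay below every other library. Cry1, Nr1d2, Cry2 and Bhlhe40 gave log2 fold changes of -0.09, -0.01, -0.04 and -0.13, with adjusted p from 0.776 to 0.972. Further down the clock output, 3 of 12 other clock-controlled genes fell and none rose: Slc46a3 (37.6, 31.8, 32.4 and 42.2 CPM in the 4 wild-type libraries against 14.4, 13.4, 22.4 and 24.9 CPM, log2 fold change -1.12 ± 0.16, adjusted p = 0.00313), the ubiquitin protease Usp2 (-0.84, adjusted p = 0.0171, but -0.50 in 4 against 4) and Rgs16, a regulator of G-protein signaling (-1.68, adjusted p = 0.0355). The share called lower over all genes tested in 4 against 3 was 2.46%.

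**Figure D2:**
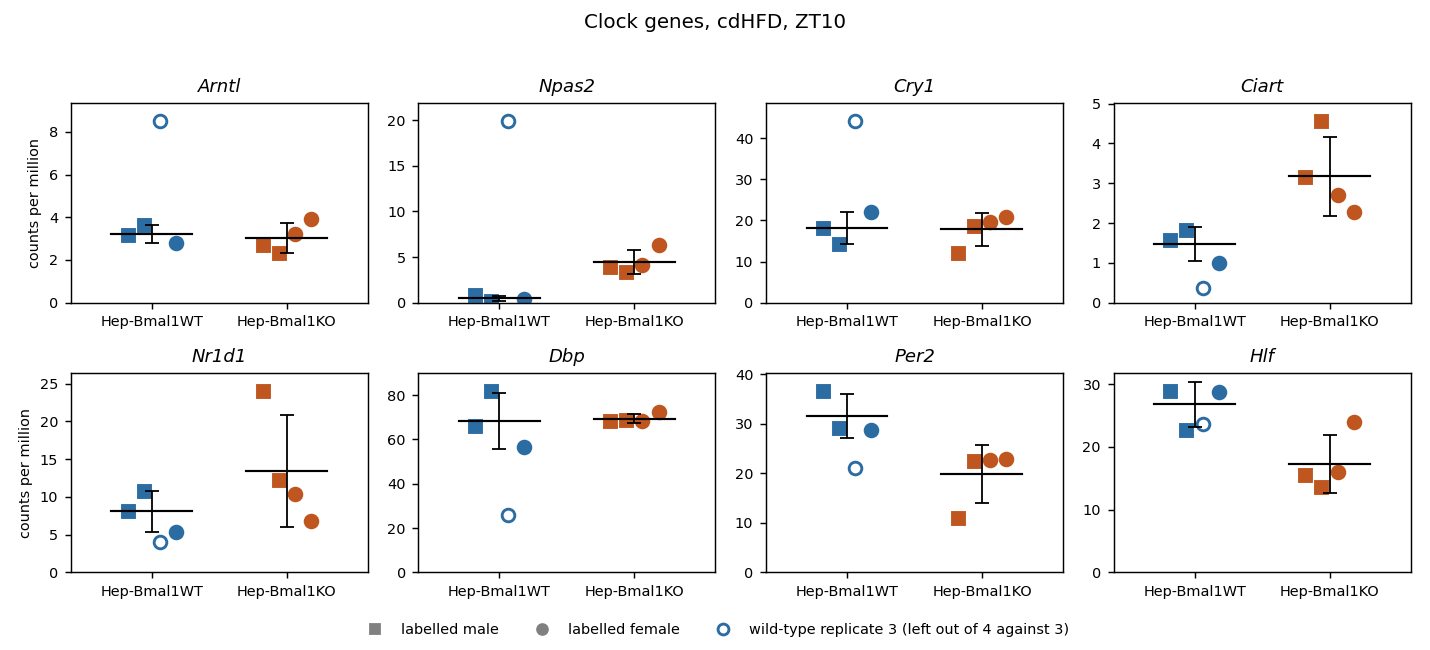
CPM of 8 clock genes in each library at ZT 10 on cdHFD, with bars for the mean and SD of the filled points (3 wild-type and 4 knockout libraries). The open circle is wild-type replicate 3, the highest library for Arntl, Npas2 and Cry1 and the lowest for Ciart, Nr1d1 and Dbp, while the filled points of the genotypes separate for Npas2, Ciart and Per2. Over all genes tested, 12.1% separate in this way.

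The same genes gave other differences at other hours. The genotype difference at ZT 10 was tested against the mean of the differences at the other 5 times on cdHFD (48 libraries, 13196 genes), and 5 genes passed (0.0379%), 1 higher and 4 lower at ZT 10. The one that was higher was Nr1d1, by 1.52 ± 0.32 on the log2 scale (adjusted p = 0.0491). Among the 4 that were lower, Cry1 differed by -1.14 ± 0.23 (adjusted p = 0.0477), Slc46a3 by -0.94 ± 0.19 (adjusted p = 0.0477) and Gpd2, the mitochondrial glycerol-3-phosphate dehydrogenase, by -0.69 ± 0.14 (adjusted p = 0.0477). At ZT 6, wild-type livers held 25.5 to 45.5 CPM of Nr1d1 and knockout livers 9.47 to 16.8, and for Dbp 183 to 230 against 26.5 to 70.6 CPM. Cry1 lay between 3.38 and 5.99 CPM in the wild type and between 16.2 and 26.4 in the knockout at ZT 2. Without the 6 cdHFD libraries that stood nearer the other genotype on both positions, 5 genes again passed (0.0373%), among them Slc46a3 (-1.05, adjusted p = 0.0491), Gpd2 (-0.70, adjusted p = 0.0491) and the citrate transporter Slc13a5 (-1.94, adjusted p = 0.0384), while Cry1 (-0.82, adjusted p = 0.291) and Nr1d1 (1.32, adjusted p = 0.236) did not.

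**Figure D3:**
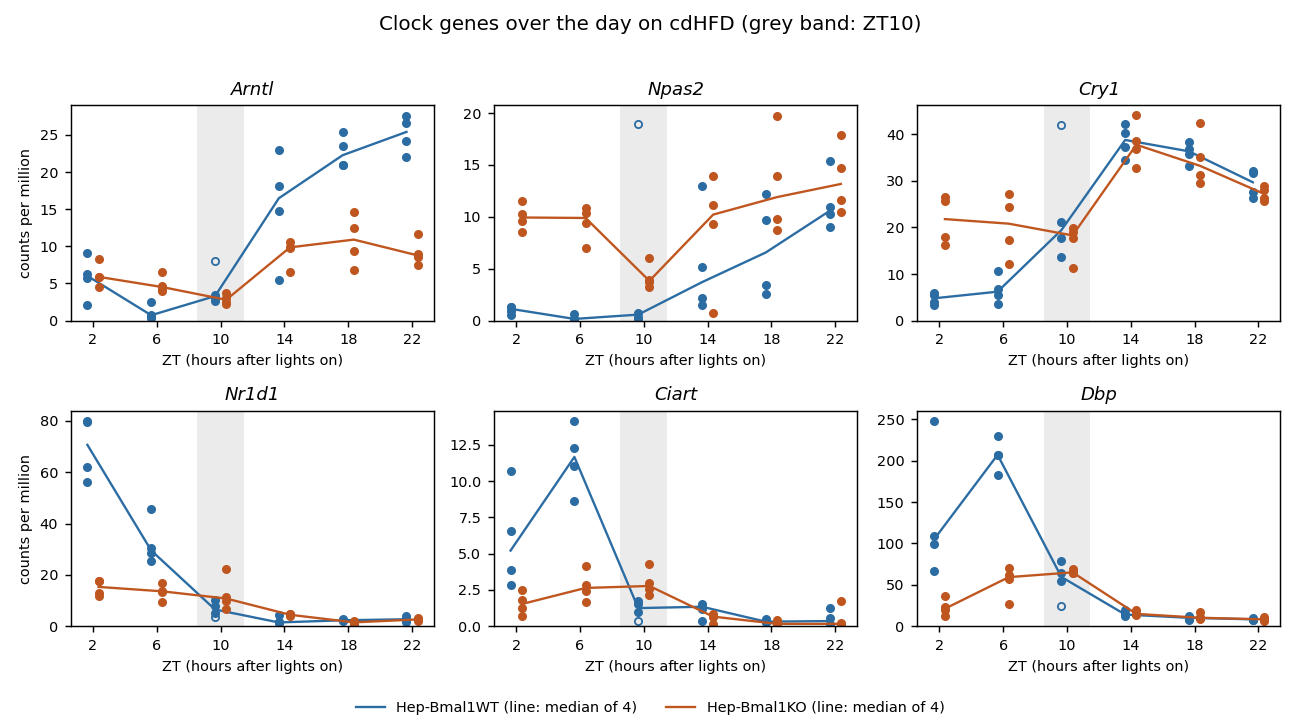
CPM of 6 clock genes at each of the 6 times on cdHFD, with a point per library and a line through the median of the 4 libraries of each genotype. At ZT 10 (grey band) the lines lie close for Arntl, Cry1 and Dbp, which are apart at ZT 6, and the knockout line lies above the wild-type line for Nr1d1 and Ciart, in the opposite order to ZT 6, and the open circle is wild-type replicate 3.

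The genotype difference was also compared between the diets at the same hour. On chow at ZT 10, on a scale set over the 16 libraries of both diets, Dbp was at 198 to 333 CPM in the wild type and at 24.7, 39.2 and 43.9 CPM in knockout replicates 1, 2 and 4, while knockout replicate 3 of the chow group, which stood at the wild-type label, held 376 CPM. Cry1 was at 6.11 to 14.8 CPM in the chow wild type and at 37.9, 48.3 and 44.3 CPM in those 3 knockout libraries. Tested as an interaction of genotype with diet over all 16 libraries (12255 genes), 1 gene passed (0.00816%): Dgkh, a diacylglycerol kinase, with 6.19 to 9.07 CPM in the wild type and 0.93 to 1.82 in the knockout on chow, and 2.73 to 5.26 against 4.65 to 9.88 on cdHFD, a difference of 3.45 ± 0.44 (adjusted p = 0.00415). DESeq2 called 126. Without the library at the other label in each diet, 299 genes passed (2.39%), 118 with a more positive and 181 with a more negative difference on cdHFD. The clock genes among them, such as Dbp (2.89), Nr1d2 (2.41) and Nr1d1 (3.19), helped to choose the libraries left out and are given as a description. The libraries were also placed on 20 genes outside the clock lists. Those 20 are not listed here, so calls outside the clock lists may not be free of that choice. With all 16 libraries the differences were 1.53 for Dbp (adjusted p = 0.475), 1.46 for Nr1d2 (adjusted p = 0.418) and 2.13 for Nr1d1 (adjusted p = 0.269). Outside the clock lists, Cdkn1a, a cell cycle inhibitor, was at 0.99 to 2.27 CPM in the chow wild type and at 17.2, 26.5 and 18.5 CPM in knockout replicates 1, 2 and 4, but at 23 to 37.5 against 23.9 to 33 CPM on cdHFD (difference -3.70 ± 0.36, adjusted p = 2.3e-05; with all 16 libraries -3.29, adjusted p = 0.0998). Insig2, a brake on sterol synthesis, was at 53.6 to 68.6 CPM in the chow wild type and at 300.4, 333 and 292 CPM in those 3 knockout libraries, but its genotypes overlapped on cdHFD, and the difference was -2.29 ± 0.17 (adjusted p = 1.84e-06), or -2.16 (adjusted p = 0.116) with all 16 libraries.

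Genes of liver injury, bile duct epithelium and matrix were higher in the knockout in 4 against 3. In the list of injury and ductular genes, 7 of 10 rose and none fell (median log2 fold change 1.34, against 0.012 over all genes tested), with 6 of 10 in males. Over all genes tested in 4 against 3, 3.25% were called higher. Spp1, which encodes osteopontin (ENSMUSG00000029304, chr5:104435111-104441053), was at 93.1, 138 and 135 CPM in the 3 wild-type libraries and at 855 and 571 CPM in the knockout males and 299 and 268 CPM in the knockout females. Wild-type replicate 3 held 235 CPM, still below every knockout library. The log2 fold change was 1.98 ± 0.28 (adjusted p = 0.00316) in 4 against 3, 2.62 in males (adjusted p = 0.000381) and 1.62 ± 0.36 (adjusted p = 0.180) in 4 against 4.

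Epcam, an adhesion molecule of bile duct epithelium (ENSMUSG00000045394, chr17:87635979-87651127), was at 2.37, 5.84 and 4.40 CPM in the wild type and at 36, 25.7, 13.7 and 11.8 CPM in the knockout, and wild-type replicate 3 at 7.05 CPM stayed below all of these. It rose by 2.46 ± 0.33 on the log2 scale in 4 against 3 (adjusted p = 0.00233). Cd24a, a surface protein of immature and ductular epithelium (ENSMUSG00000047139, chr10:43579169-43584265), was at 4.27, 7.67, 8.50 and 5.39 CPM in the 4 wild-type libraries and at 32.5, 34.5, 17.3 and 15.0 CPM in the knockout. It had the smallest p among the genes that rose in 4 against 3 (log2 fold change 2.19 ± 0.25, adjusted p = 0.00162) and an adjusted p of 0.054 in 4 against 4. The ductular transcription factor Sox9 (1.24), the lipid-associated macrophage receptor Trem2 (1.24) and Gpnmb (1.45, or 0.95 in 4 against 4) rose as well, and the stress hormone Gdf15 gave -0.36 (adjusted p = 0.32).

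Of 10 genes of matrix and stellate cell activation, 7 rose and none fell (median 1.08), and 4 of 10 passed in males. The share called higher over all genes tested in 4 against 3 was 3.25%. Col1a1, a chain of fibrillar collagen (ENSMUSG00000001506, chr11:94936224-94953042), was at 56.3, 90 and 57.3 CPM against 295, 188, 124 and 141 CPM, with 127 CPM in wild-type replicate 3, which overlapped the knockout females. The log2 fold changes in 4 against 3 were 1.52 ± 0.20 for Col1a1 (adjusted p = 0.00233), 1.07 for Col3a1 and 1.2 for the proteoglycan Lum. For Lum, wild-type replicate 3 at 73.4 CPM lay above both knockout females (55.4 and 51 CPM). The 6 other markers of stellate cells gave no call and a median of 0.61, and 1 rose in males. Tgfb1 (0.32, adjusted p = 0.27) and Col4a1 (0.41, adjusted p = 0.16) did not pass.

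Markers of other cell types moved with these genes. The summed level of 4 cholangiocyte markers ran from 17.4 to 28.7 CPM in the 3 wild-type libraries, was 37.8 in wild-type replicate 3, and ran from 42 to 104 CPM in the knockout, and 3 of the 4 rose (Epcam, Sox9 and Krt19, which are also in the injury list), with 2 in males. For 8 Kupffer cell and macrophage markers the sums were 1320 to 1693, 2210 and 1845 to 3288 CPM, and 4 rose. Lyz2, the lysozyme of myeloid cells, was at 680, 728 and 585 CPM in the wild type, 1186 in replicate 3, and 1446, 1898, 1191 and 990 CPM in the knockout (log2 fold change 1.11 ± 0.14, adjusted p = 0.00198), while Clec4f, a marker of resident Kupffer cells, gave -0.09 (adjusted p = 0.79). All 3 neutrophil markers tested rose (S100a8 1.35, S100a9 1.43 and Retnlg 2.01), with sums of 60.7 to 69.6 CPM in the wild type, 129 in replicate 3 and 92.4 to 241 CPM in the knockout. Of 4 monocyte markers, S100a4 (1.38) and Itgam (1.01, or 0.53 in 4 against 4) rose, but neither passed in males. The endothelial marker Lyve1 rose (0.92, 1 of 5) and the erythroid gene Alas2 fell (-1.07, 1 of 5, and none in males). The neutrophil marker Ly6g and the lymphocyte markers Cd3e, Cd8a, Gzmb, Cd79a and Ms4a1 were too low to be tested. Hepatocyte markers summed to 94860 to 116600 CPM in the 3 wild-type libraries, 84190 in replicate 3 and 72890 to 93970 CPM in the knockout, so replicate 3 lay within the knockout range. Of these markers, Alb (-0.42, adjusted p = 0.0294) and Fabp1 (-0.58, adjusted p = 0.0199, or -0.39 in 4 against 4) fell, and Alb did not pass in males (adjusted p = 0.258). The part of cell composition in the other results was not tested.

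**Figure D4:**
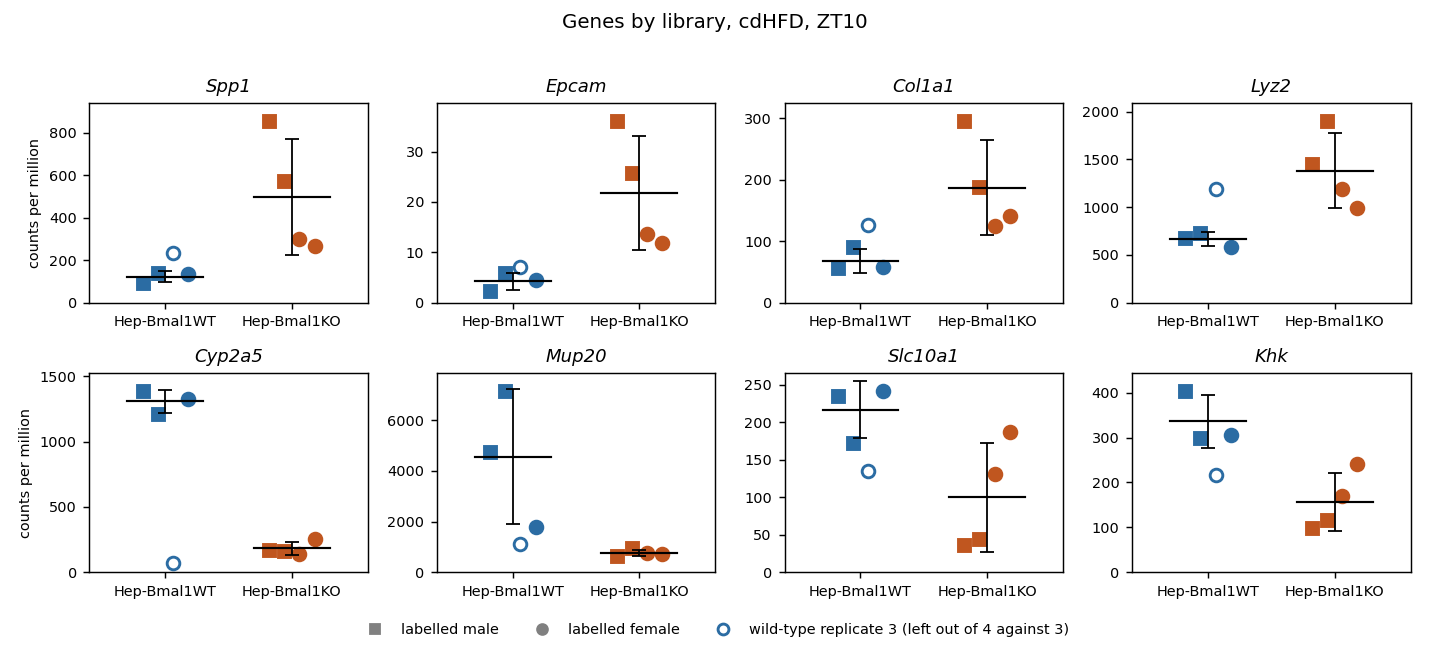
CPM of 8 genes in each library at ZT 10 on cdHFD, with bars for the mean and SD of the filled points (3 wild-type and 4 knockout libraries; squares male, circles female by label). For Spp1, Epcam, Slc10a1 and Khk the knockout males stand further from the wild type than the knockout females, and for Cyp2a5 the open circle of wild-type replicate 3 lies below every knockout library.

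In the list of xenobiotic receptors and Cyp enzymes of drug metabolism, 5 of 13 fell and 1 rose (median -0.57), with 4 and 2 in males. Over all genes tested in 4 against 3, 2.46% were called lower and 3.25% higher. The 5 that fell include the receptors Nr1i2 and Nr1i3. Cyp2a5, an oxidase of nicotine and coumarin (ENSMUSG00000005547, chr7:26835339-26843264), had the smallest p of all genes. It was at 1387, 1212 and 1322 CPM in wild-type replicates 1, 2 and 4, and at 168, 165, 141 and 259 CPM in the knockout, 1307 ± 88.2 CPM (SD, n = 3) against 183 ± 51.7 (n = 4), or 7.31-fold lower. The log2 fold change was -2.87 ± 0.18 (adjusted p = 5.05e-06). Wild-type replicate 3 held 73.3 CPM, below every knockout library, and with it included the log2 fold change was -2.38 ± 0.60 (adjusted p = 0.201).

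The Cyp2a4 transcript, a steroid 15-alpha-hydroxylase that is nearly identical to Cyp2a5 in sequence, so that reads may be shared, fell by 1.5 on the log2 scale (adjusted p = 0.00199). The xenobiotic receptors PXR (Nr1i2, -0.57, adjusted p = 0.0369) and CAR (Nr1i3, -0.80, adjusted p = 0.039) fell with Cyp3a11 (-0.57, adjusted p = 0.0177), although Nr1i2 and Cyp3a11 did not pass in males (adjusted p = 0.265 and 0.126). Cyp2b10, a classic target of CAR, went the other way, from 1.74, 2.19 and 1.80 CPM to 9.79, 9.47, 7.09 and 2.79 CPM (log2 fold change 2.02 ± 0.39, adjusted p = 0.0126), with 16.1 CPM in wild-type replicate 3, above every knockout library. With it the log2 fold change was 0.54 (adjusted p = 0.806). Of 14 glutathione transferases and NRF2 targets, 4 fell (Gsta1, Gsta2, Gsta4 and Gclm) and none rose, but 1 fell and 1 rose in males. In 4 against 4 the log2 fold changes of Gsta1 and Gclm were -0.57 and -0.29. Gsta1 and Gsta2 are close paralogs that may also share reads.

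A pair of markers of the male liver pattern were low in all knockout libraries of both sexes. Mup20, a major urinary protein (ENSMUSG00000078672, chr4:62011337-62054143), was at 4745 and 7142 CPM in the wild-type males, 1104 and 1800 CPM in the wild-type females, and 637, 944, 743 and 741 CPM in the knockout. Cyp2d9, a testosterone hydroxylase, was at 213 and 245 CPM in wild-type males, 49 and 61.7 in wild-type females, and 24.6 to 34 CPM in the knockout. In males the log2 fold changes were -2.91 for Mup20 (adjusted p = 0.000324) and -2.78 for Cyp2d9 (adjusted p = 7.65e-05). Both genes belong to families of near-identical copies. In the list of growth hormone, IGF and sex-dependent genes, the growth hormone receptor Ghr (-0.58, adjusted p = 0.0373) also fell, and its target Socs2 rose (1.04, adjusted p = 0.0407), although neither passed in males (adjusted p = 0.0631 and 0.214).

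Genes that turn sugar into fat were lower. In the lipogenesis and SREBP1 list 5 of 12 fell and none rose (median -0.39), with 4 of 12 in males, where Acacb did not pass, and in the list of sugar-responsive targets of CHREBP 5 of 9 fell and 1 rose (median -0.75). The shares over all genes tested in 4 against 3 were 2.46% lower and 3.25% higher. Thrsp, a lipogenic nuclear protein (ENSMUSG00000035686, chr7:97412933-97417550), was at 248, 163 and 238 CPM in the wild type and at 6.16, 31.6, 32.7 and 128 CPM in the knockout, all lower than the 3 wild-type libraries, with 45 CPM in wild-type replicate 3 (log2 fold change -2.68 ± 0.54, adjusted p = 0.0136). Fasn, the fatty acid synthase, was lower in all 4 knockout libraries (69.3, 133, 101 and 196 CPM) than in all 4 wild-type libraries (281, 222, 234 and 322 CPM), with a log2 fold change of -1.23 in 4 against 3 (adjusted p = 0.0108) and -1.11 in 4 against 4 (adjusted p = 0.159). Elovl6 (-1.25), Acacb (-1.23) and Acaca (-0.63) fell too, whereas Scd1 (0.25, adjusted p = 0.31), Acly (-0.23, adjusted p = 0.51) and Srebf1 itself (-0.40, adjusted p = 0.37) did not pass.

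Khk, which phosphorylates fructose (ENSMUSG00000029162, chr5:30921436-30931248), was at 403, 299 and 305 CPM in the wild type and at 98.7, 116, 170 and 241 CPM in the knockout (log2 fold change -1.27 ± 0.22, adjusted p = 0.00739). For Khk, wild-type replicate 3 at 217 CPM lay below knockout replicate 4. The glucose transporter Slc2a2 (-1.22), Pklr (-0.89) and Tkfc (-0.87) fell with Khk, and Txnip, also a CHREBP target, rose (0.77, adjusted p = 0.0188). Mlxipl, which encodes CHREBP, gave -0.75 (adjusted p = 0.075). Among 10 genes of glucose output and glycogen, 3 fell, among them the glycogen genes Ppp1r3b (-1.26) and Gys2 (-0.86), and Igfbp1, an insulin-repressed binding protein, rose from 110, 154 and 105 CPM to 626, 716, 195 and 135 CPM (log2 fold change 1.64 ± 0.29, adjusted p = 0.0076). Knockout replicate 4 overlapped the wild type, and wild-type replicate 3 at 321 CPM lay above both knockout females, so that the log2 fold change of Igfbp1 was 0.99 in 4 against 4 (adjusted p = 0.474). The gluconeogenic enzymes Pck1 (0.29), G6pc (-0.03) and Fbp1 (0.08) gave no call. No gene of triglyceride synthesis and VLDL (0 of 10) passed, where 3.25% of all genes tested were called higher and 2.46% lower. Of 17 genes of fatty acid oxidation and PPAR-alpha, Fgf21 rose, from 38.9, 45.1 and 42.8 CPM to 66, 157, 201 and 86.6 CPM (1.54 ± 0.31, adjusted p = 0.0135), and Vnn1 fell (-0.57, adjusted p = 0.0256), whereas in males 3 rose and none fell. For Fgf21, wild-type replicate 3 at 117 CPM lay above knockout replicates 1 and 4. Of 10 lipid droplet genes, Hilpda, which restrains triglyceride breakdown, rose (0.95, adjusted p = 0.0195) and Fitm1 fell (-1.49, adjusted p = 0.0375).

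Sterol synthesis gave no call. None of 19 enzymes of cholesterol synthesis passed in 4 against 3 (median -0.21, range -0.66 to 0.42), in males or without knockout replicate 4. Over all genes tested in 4 against 3, 3.25% were called higher and 2.46% lower, so a list of this size may hold no call. Of 9 genes of sterol efflux and LXR, the cholesterol-esterifying enzyme Soat1 (1, adjusted p = 0.00795) and the exporter Abcg1 (0.74, adjusted p = 0.0294) rose, and 3 of 9 rose in males. Both are abundant in macrophages, and a part of macrophage content in their rise was not tested. In the SREBP2 list 1 of 12 rose and 1 fell, and the one that rose was Mylip (0.63, adjusted p = 0.0289), a ubiquitin ligase. Its log2 fold change was 0.29 in 4 against 4 (adjusted p = 0.666), and it did not pass in males (adjusted p = 0.13).

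Some transcripts of bile acid uptake and conjugation were lower. Slc10a1, the sodium-dependent bile acid importer NTCP (ENSMUSG00000021135, chr12:80953185-80968705), was at 236, 173 and 242 CPM in the wild type and at 36.5 and 44.6 CPM in knockout males and 131 and 187 CPM in knockout females. It fell by 1.67 on the log2 scale (SE 0.30, adjusted p = 0.00784), although knockout replicate 4 overlapped the wild type. Wild-type replicate 3, at 136 CPM, lay between the knockout females. The transporter Slco1b2 (-0.79) and the conjugating enzymes Baat (-0.65) and Slc27a5 (-0.64) fell too, which makes 4 of 12, and 4 of 12 in males. Cyp7a1, the rate-limiting enzyme of bile acid synthesis, gave -0.29 (adjusted p = 0.36). Of 11 carboxylesterases, which hydrolyze lipid esters and drugs, 6 fell and none rose (median -0.83, the lowest among the lists), 6 in males as well. Over all genes tested in 4 against 3, 2.46% were called lower. Ces1d went from 411, 304 and 507 CPM to 66.8, 151, 245 and 313 CPM (log2 fold change -1.38 ± 0.25, adjusted p = 0.00909), with 117 CPM in wild-type replicate 3. Members of this family are close copies and may share reads.

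Interferon-stimulated genes fell in 4 of 12 cases (among them Isg15, Ifit1 and Usp18) and rose in none (median -0.47), with 5 of 12 in males. Ifit1 was at 68.4, 55.5 and 35.8 CPM in the 3 wild-type libraries and at 11.8, 17.3, 29.2 and 30.8 CPM in the knockout (log2 fold change -1.38 ± 0.30, adjusted p = 0.0200). Wild-type replicate 3 held 18.8 CPM, within the knockout range, and with it the log2 fold change was -0.96 (adjusted p = 0.349). Amino acid genes moved both ways: Got1, an aspartate aminotransferase, rose from 61, 47.5 and 56.1 CPM to 227, 219, 89 and 75.1 CPM (1.43 ± 0.25, adjusted p = 0.0067), Cbs rose by 0.80 (0.45 in 4 against 4), and the urea cycle enzyme Otc fell (-0.65, adjusted p = 0.0188), out of 21. In males 3 rose and none fell, and Otc had an adjusted p of 0.0533. For Got1, wild-type replicate 3 at 84.5 CPM lay above knockout replicate 4. Of 11 genes of the unfolded protein response, Trib3 (1.51, or 0.70 in 4 against 4) and Ddit3 (0.78, or 0.31 in 4 against 4) rose, while the chaperone Hspa5 gave 0.06. Hspb1 (-0.95) and Hsp90aa1 (-0.59) fell among 10 heat shock and cold-inducible genes, and Hsp90aa1 did not pass in males (adjusted p = 0.155). None of 9 hepatocyte identity factors and none of 15 cell cycle genes passed, with medians of -0.32 and -0.30. Over all genes tested, 3.25% were called higher and 2.46% lower, so lists this short may hold no call. Of 10 acute phase proteins 1 fell (Crp, -0.57), and 1 of 10 glucocorticoid-responsive genes rose (Sgk1, 1.02, or 0.47 in 4 against 4).

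**Figure D5:**
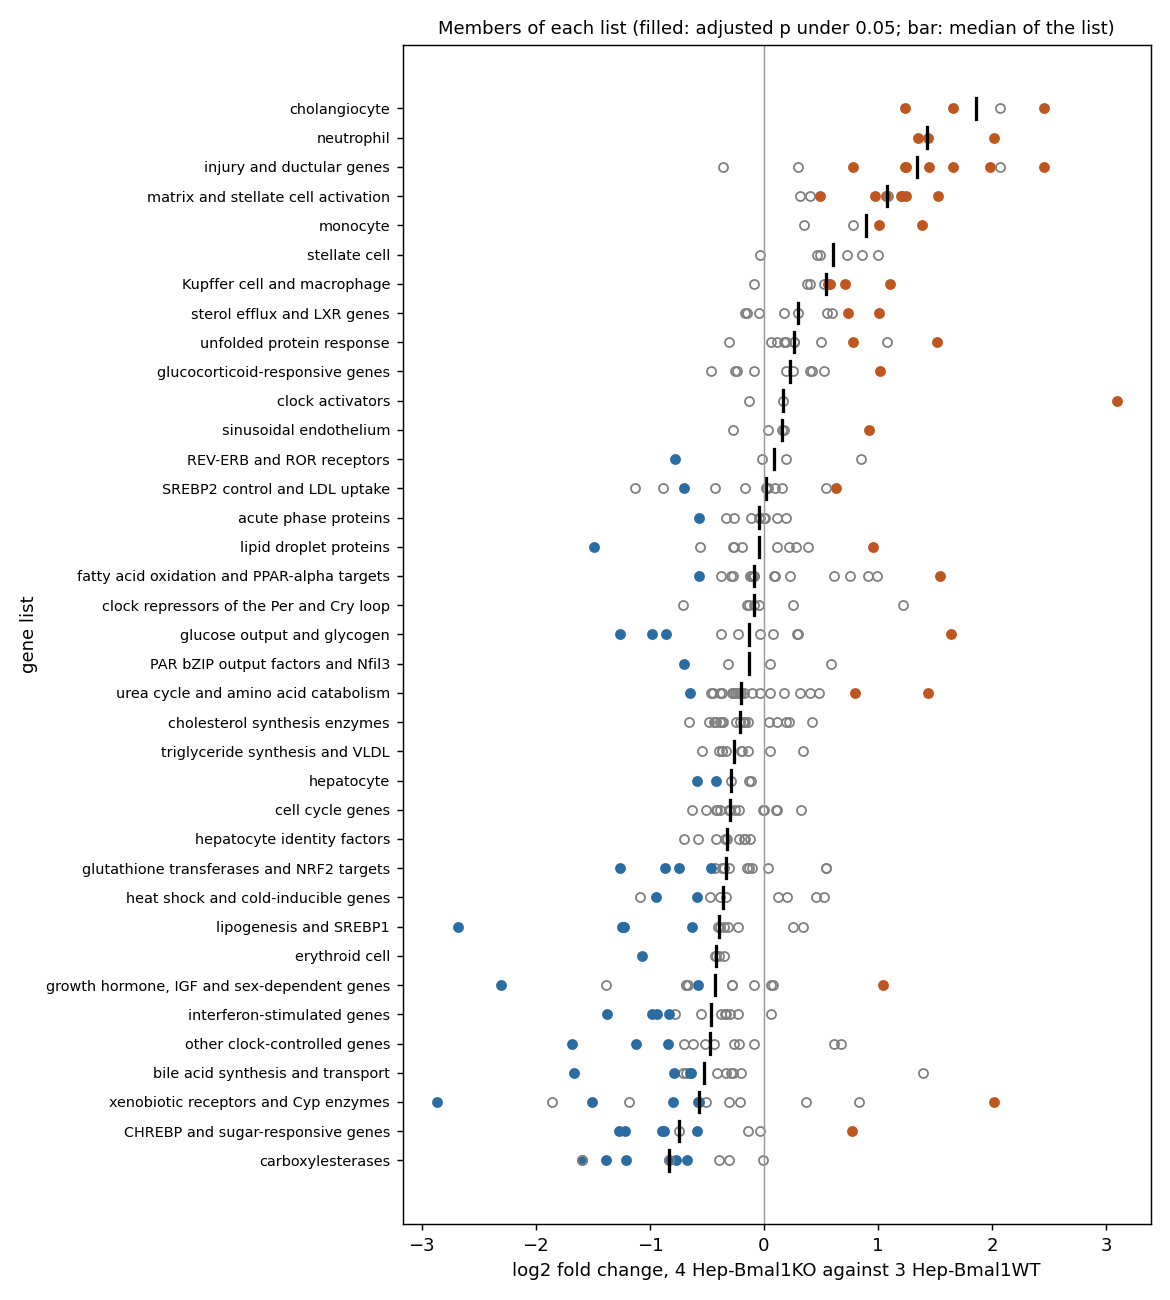
Log2 fold change of each member (points) of the lists with 3 or more genes tested, 4 knockout against 3 wild-type libraries, ordered by the median of the list (black bar). Filled points passed an adjusted p of 0.05, and the lists of cholangiocyte, neutrophil, injury and matrix genes have the highest medians and carboxylesterases the lowest.

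Both knockout males lay further from the wild type than both knockout females for all 12 leading genes that rose and for 9 of the 12 that fell. The difference was tested as an interaction of genotype with sex, chosen after the values were seen. In the 7 libraries, with a single wild-type female, 10 genes passed (0.0831% of genes tested), and 16 passed in all 8 (0.133%). Spp1 (adjusted p = 0.177), Epcam (adjusted p = 0.732) and Slc10a1 (adjusted p = 0.0972) did not pass. The females are the libraries that hold both doubted samples. Among the 10, Glul, the glutamine synthetase of pericentral hepatocytes, was at 254 and 259 CPM in wild-type males, 69.8 and 61.5 CPM in knockout males, 287 CPM in wild-type replicate 4, and 213 and 265 CPM in knockout females. Cyp1a2, also pericentral, was at 702 and 498 CPM in wild-type males and at 78.7 and 70.7 CPM in knockout males, against 402 CPM in wild-type replicate 4 and 322 and 793 CPM in knockout females.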

How the data were processed

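RNA from whole liver was sequenced by BRB-seq. The authors deposited raw read counts per gene and library, and the submitters' processing notes name STAR, HTSeq, featureCounts and the mm10 build, without a role or version used here. The summary rows that name no gene were left out (reads on no feature 8.9 to 11.3% and reads not aligned 16.8 to 20.1% in the 8 libraries).

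Groups, sex and time came from the labels. Each library was taken as 1 mouse, as the study describes its replicates. Counts were tested with edgeR 4.0.16 (R 4.3.3; TMM scaling, filterByExpr, a sex term, quasi-likelihood F test) and genes were called at a Benjamini-Hochberg adjusted p under 0.05 over all genes tested. SE values are the log2 fold change divided by the square root of F, and CPM values use TMM library sizes. The scripts were tested on simulated data. Coordinates are those of GRCm38.p6. Alternatives were DESeq2 1.42.0, its size factors, other count filters, no sex term, a spread shared over the 48 cdHFD libraries, and leaving out each library; males alone and the interaction with sex were added after the data were seen. Wild-type replicate 3 was left out because its resemblance to the knockout was known.

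The members, gene lists and tests were chosen with earlier results of these data known. The text names Arntl, all clock genes, up to 4 called genes per list and direction with some that were not called, the 12 leading genes in each direction and the leading genes of the interactions. The rule for leading genes asked for a call in both 4 against 4 and 4 against 3, which gave none, so it was applied to 4 against 3 alone after the results were seen. Genes of the sex interaction, and members named beyond 4 a list, were chosen after their values were seen. Some genes are not reported here.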

Additional observations from a re-analysis of the deposited data

Results flagged for a closer look

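For each of the 56 genes described by library, the most extreme library of the 4 in each genotype was compared with the rest by its gap to the nearest library as a share of the range. This gap passed Dixon's 95% critical value for 4 samples in 14 of 112 groups, and 9 of the 14 were wild-type replicate 3. Chance alone flags about 5% of groups, but many of these genes were chosen on calls made without replicate 3, a choice that favors genes in which it stands apart, so the count is no support for that. It was the highest wild-type library for Arntl (0.85), Npas2 (0.969), Nfil3 (0.857), Dcdc2a (0.907), Sox4 (0.942), Sox9 (0.923) and Fgf21 (0.921), and the lowest for Cyp2a5 (0.867) and Gsta2 (0.881). Wild-type replicate 4 was lowest for Cry2 (0.935) and highest for Akr1d1 (0.853). In the knockout, replicate 1 was lowest for Per2 (0.966), and replicate 4 was highest for Per3 (0.867) and Dbp (0.892).

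The genotype difference in males minus that in females, as log2 in the 7 libraries, passed the edgeR interaction test for 10 genes (adjusted p 0.0383 to 0.0425). It was positive for H19 (4.25), Sult2a2 (2.69), Serpinb6b (2.40), Sds (2.28), Nnmt (2.21) and Ubd (1.86), and negative for Cyp1a2 (-3.48), Angptl8 (-2.77), Apol9a (-2.04) and Glul (-1.71). The female arm holds 1 wild-type library and the knockout library without Xist.

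The genotype difference also differed by diet for Dgkh (3.45) and between ZT 10 and the other times for Nr1d1 (1.52), Cry1 (-1.14), Slc46a3 (-0.94) and Gpd2 (-0.69).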

How the results depend on the processing

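In 4 against 4 (0 genes called), DESeq2 called 97 (48 higher, 49 lower), a filter on a sum of 100 counts over the series 5 (1 higher, 4 lower), no filter 583 (293 and 290), a spread shared over the cdHFD libraries 47 (25 and 22) and males alone 521 (283 and 238). Leaving out 1 library gave 0 to 687 genes (0 to 391 higher, 0 to 296 lower), with 687 without wild-type replicate 3, 6 without knockout replicate 4 and 1 without wild-type replicate 4. In 4 against 3 (687), no filter gave 1266 (694 and 572), no sex term 8 (2 and 6), and a shared spread 295 (149 and 146). Leaving out a further library gave 182 to 837 genes (104 to 438 higher, 77 to 399 lower), with 194 without wild-type replicate 1, 182 without wild-type replicate 2, 289 without knockout replicate 2 and 290 without knockout replicate 3. DESeq2 gave 803, its size factors 683, the sum filter 752 and the comparison without knockout replicate 4 gave 666. The interaction with diet (1 gene) gave 299 without the libraries at the other label and 126 with DESeq2, and that with time (5) gave 15 with DESeq2 and 1 with the sum filter. Of 97 named genes called in 4 against 3, 96 were called by DESeq2, 45 with a shared spread, 77 in males, 5 without the sex term, 58 and 56 without wild-type replicates 1 and 2, and 66 without knockout replicate 2 or 3, and none changed direction under any alternative. The causes of these changes were not tested.

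No paired analysis was possible because the labels give no replicate number, and the numbers used here only name libraries in accession order. The calls of 4 against 3 rest on leaving out a library, on the sex term and on 1 to 2 wild-type libraries per sex. At 5515868 to 7937700 counts a library, low transcripts such as Npas2 rest on a few reads.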
